A study of Mus musculus with 3 samples.

Results

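The C1q-positive cells of the P10-sham_vehicle and P10-MI_vehicle libraries were macrophages sorted from pup hearts, and they are described here by how their transcripts differed between sham operation and myocardial infarction (MI). Cells were chosen by their measured C1q share. A cell belonged to this set when C1qa, C1qb and C1qc together made up at least 0.3% of its unique molecular identifiers (UMIs, one per captured RNA molecule), after cells with 500 to 30000 UMIs, 500 to 5000 genes and a mitochondrial share under 10% had been kept. By this rule 4628 of the 5806 kept cells of both libraries were C1q-positive, of 10550 kept cells in the whole series.

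All animals were C57BL/6 pups of both sexes that were operated on at P10, and their hearts were taken 3 days later, at P13. In P10-MI_vehicle the left anterior descending coronary artery was tied off for good, whereas P10-sham_vehicle pups had the same operation, under the same cooling anaesthesia, with no ligation. Both groups received vehicle (DMSO, polyethylene glycol and Tween in PBS) by intraperitoneal injection daily for 3 days, so the vehicle was shared by MI and control. The infarct zone (IZ) and border zone (BZ) were dissociated in buffers that held sodium butyrate, and CD45+F4/80+7AAD- cells, that is living leukocytes bearing a macrophage surface antigen, were sorted. Tissue of 3 to 5 hearts was pooled into 1 library for each condition, and the animals within a pool cannot be told apart. There is thus no replicate error for any comparison below. Intervals are 95% and exact and cover counting error only, no p-value was computed, and the condition cannot be told apart from the library that holds it.

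C1q is the recognition part of the classical complement pathway, assembled from the chains that C1qa, C1qb and C1qc encode. Tissue macrophages are its main source in the body, while monocytes fresh from the blood express little of it and gain it as they mature in a tissue. The neonatal heart holds long-lived resident macrophages of embryonic origin, which clear debris and support vessels. After an infarct, neutrophils and then Ly6c2-high, Ccr2-bearing monocytes enter the injured wall, and some of these monocytes differentiate into macrophages that take up dead cells and shape the scar.

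Of the kept cells, 2115 of 2352 in P10-sham_vehicle were C1q-positive, a share of 89.9% (exact binomial interval 88.6 to 91.1). In P10-MI_vehicle 2513 of 3454 cells were C1q-positive, a share of 72.8% (71.2 to 74.2). The share was thus 17.2 percentage points lower after MI (interval of the difference -19.1 to -15.2), within cells that had all passed the F4/80 gate. Cells with less than 0.05% of their UMIs from C1q made up 7.82% of kept sham cells and 20.9% of kept MI cells, so the larger share of C1q-low cells in the MI library was present well below the limit too. The C1q-positive cells carried a median of 8802 UMIs and 3095 genes in P10-sham_vehicle and of 6548 UMIs and 2529 genes in P10-MI_vehicle. They hold 19889444 UMIs after sham and 18775800 UMIs after MI in all. Their median mitochondrial share was 5.13% after sham and 4.65% after MI.

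The C1q share chose the cells, and it is given only as a description. Its median among the chosen cells was 0.924% of UMIs after sham and 0.932% after MI. The lowest cell inside the limit held 0.301% in P10-sham_vehicle and 0.307% in P10-MI_vehicle, and the highest cell outside it held 0.296% and 0.298%. Few cells lay close to the limit, with 33 sham and 92 MI cells from 0.2% up to 0.3%, and 54 sham and 120 MI cells from 0.3% up to 0.4%. Summed over the chosen cells and scaled to 1000000 of their UMIs (CPM), C1qa was at 3259 CPM after sham and 3158 CPM after MI.

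**Figure D1:**
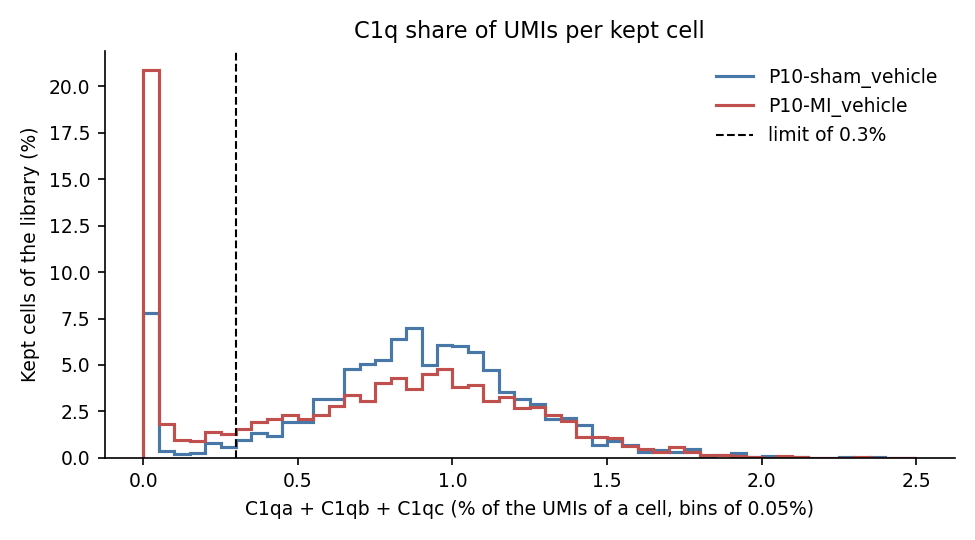
Share of a cell's UMIs that came from C1qa, C1qb and C1qc (x axis, percent) against the share of kept cells of each library (y axis, percent), with the selection limit of 0.3% marked. In both libraries the C1q-positive cells form one broad group with a median near 0.93%, and the group of cells near 0 is larger in P10-MI_vehicle (20.9% of kept cells under 0.05%) than in P10-sham_vehicle (7.82%).

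The chosen cells carried macrophage transcripts in both libraries. Adgre1, which encodes F4/80, was at 508 CPM after sham and 517 CPM after MI. Csf1r, the receptor of the main macrophage survival factor, was at 891 and 884 CPM, and the phagocyte protein gene Cd68 was at 400 and 427 CPM. The 12 macrophage identity genes had a median log2 ratio of MI over sham of 0.05, and 0 of them differed 2-fold. Defining markers of other cell types were low. The 9 endothelial genes summed to 36.4 CPM after sham and 26.8 CPM after MI (highest Gpihbp1 at 7.74 and 3.09 CPM), and the 9 T and NK cell genes to 33.9 and 62.1 CPM (highest Skap1 at 9.25 and 12.7 CPM). The 5 mural cell genes summed to 6.54 and 12.4 CPM (highest Rgs5 at 4.47 and 10.1 CPM), and the 8 dendritic cell genes to 50.6 and 62.8 CPM, most of it Clec10a, which macrophages also express, at 39.9 and 47.4 CPM. None of the genes on these lists was at 0 in both libraries.

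Transcripts of 5 other cell types summed to more than 100 CPM in at least 1 library. Their sums differed between the libraries, as did those of the lower lists above. The 13 neutrophil genes summed to 5054 CPM after sham and 9697 CPM after MI, led by S100a8 at 2134 and 4603 CPM. Of the 13, 9 reached 20 CPM in either library, among them the granule gene Lcn2 at 142 and 268 CPM. The granule genes Elane (0.704 and 0.905 CPM) and Mpo (0.453 and 0.639 CPM) and the surface marker gene Ly6g (1.06 and 2.34 CPM) were near 0. The 7 B cell genes summed to 157 and 212 CPM (highest Ighm at 84.7 and 112 CPM) and the 9 fibroblast genes to 102 and 143 CPM (highest Col3a1 at 34.0 and 46.3 CPM). The 10 cardiomyocyte genes went the other way, with 395 CPM after sham and 263 CPM after MI (highest Myl2 at 115 and 75.5 CPM), and so did the 5 erythroid genes, with 110 and 14.2 CPM (highest Hbb-bs at 58.9 and 7.40 CPM). Their part in the results below was not tested unless a value is given there. As a background, the kept cells that had at least 0.5% of their UMIs in the B cell, T and NK cell, fibroblast or endothelial list and under 0.1% in C1q served as non-myeloid cells. They numbered 132 in P10-sham_vehicle and 314 in P10-MI_vehicle, of which 77 and 208 were fibroblasts by their genes. Their levels include transcripts that these cells make themselves, with Plac8 at 1616 CPM in the B cells of the MI library. For such genes they are no measure of free RNA.

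The libraries also shared 1260 barcodes, which is 37.2% of those of P10-sham_vehicle and 27.9% of those of P10-MI_vehicle. Of these, 530 were C1q-positive in both. Across the shared barcodes the UMI totals in the libraries had a Spearman correlation of 0.144, given as a description of 1260 barcodes of 1 platform. Leaving out the cells with shared barcodes left 1256 sham and 1754 MI cells, with 91 genes at least 2-fold higher and 8 at least 2-fold lower after MI, of which 75 and 6 are among those described next.

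A gene was counted when it reached 20 CPM in either library, which left 6659 genes, and it was called higher or lower when its level differed at least 2-fold. By this rule 78 genes were higher after MI (1.17% of the genes counted) and 8 were lower (0.120%). The median log2 ratio of all 6659 genes was -0.06, and 6365 of them (95.6%) lay within 0.5 log2 units of 0. At a stricter minimum of 100 CPM, 1716 genes were counted, 16 higher and 2 lower. A gene that reached 20 CPM only in the library where it was high had to differ, so these counts describe the libraries and are no test.

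**Figure D2:**
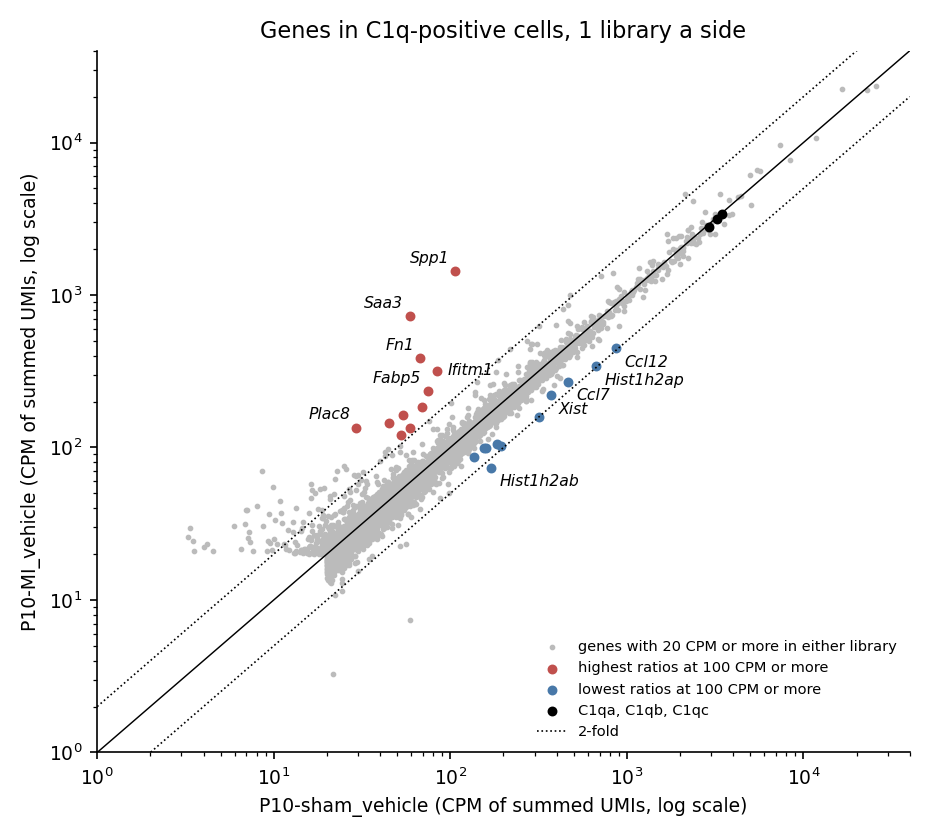
Levels of the counted genes in C1q-positive cells after sham (x axis, CPM, log scale) and after MI (y axis, CPM, log scale), with dotted lines at 2-fold, the highest ratios in red and the lowest in blue (genes that reached 100 CPM), C1qa, C1qb and C1qc in black, and some of them named. Most genes lie along the diagonal, while Spp1 (107 and 1430 CPM), Saa3 (58.9 and 726 CPM) and Fn1 (67.6 and 387 CPM) stand above it, and the histone genes Hist1h2ab and Hist1h2ae lie on or below the lower line.

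Of the 17 counted genes of the wound repair and matrix list, 5 rose, and the median log2 ratio was 0.51. Fn1, the gene of the matrix protein fibronectin, rose from 67.6 to 387 CPM (log2 2.52, interval 2.43 to 2.60). Thbs1, which encodes thrombospondin 1, an activator of latent TGF-β, rose from 7.04 to 38.7 CPM (log2 2.46, 2.19 to 2.73). Tgm2, the gene of a transglutaminase that crosslinks matrix and helps cells engulf dead neighbours, rose from 5.93 to 30.8 CPM (log2 2.38, 2.09 to 2.67), and the proteoglycan gene Vcan rose from 4.53 to 21.0 CPM (log2 2.21, 1.88 to 2.56). The protease gene Adam8 (33.2 to 60.5 CPM) and the abundant galectin gene Lgals1 (2538 to 2363 CPM), did not reach 2-fold. Non-myeloid cells of the MI library held Fn1 at 1701 CPM, Thbs1 at 214 CPM, Tgm2 at 63.8 CPM and Vcan at 443 CPM, all above the C1q-positive cells. The fibroblast list summed to 102 CPM after sham and 143 CPM after MI in the C1q-positive cells. The count of the list was 2 of 14 (median 0.32) at a C1q limit of 1%, 3 of 15 with 1 lower (median 0.23) in cells with Xist and no Y-linked UMI, and 7 of 16 (median 0.75) in cells with a Y-linked and no Xist UMI. The part of free RNA in the levels of Fn1, Thbs1, Tgm2 and Vcan was not tested.

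Of the 15 counted genes of the lipid-associated macrophage list, 4 rose, and the median log2 ratio was 0.37. Spp1 encodes osteopontin, a secreted glycoprotein that macrophages make in injured tissue, and it rose from 107 CPM to 1430 CPM, 13.4-fold (log2 3.74, 3.68 to 3.81). Gpnmb, a lysosomal and surface glycoprotein gene, rose from 8.55 to 70.6 CPM (log2 3.05, 2.82 to 3.29). The fatty-acid binding protein gene Fabp5 rose from 74.4 to 235 CPM (log2 1.66, 1.57 to 1.75), and Mmp12, the gene of macrophage elastase, rose from 7.19 to 25.4 CPM (log2 1.82, 1.55 to 2.10). Lgals3, the galectin-3 gene, missed the 2-fold limit at 464 and 860 CPM, and the lipid-droplet coat gene Plin2 was at 321 and 416 CPM. In non-myeloid cells of the MI library Spp1 stood at 47.6 CPM, Gpnmb at 7.85 CPM and Mmp12 at 0.523 CPM, far below the C1q-positive cells, whereas Fabp5 stood at 310 CPM there and at 618 CPM in those of the sham library.

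Saa3, an acute-phase serum amyloid gene that macrophages and stromal cells can make, rose from 58.9 CPM to 726 CPM, 12.3-fold (log2 3.62, 3.54 to 3.71). It and Clec4e, the gene of the Mincle receptor for dead cells and microbial lipids, which went from 7.34 to 24.1 CPM (log2 1.71, 1.44 to 1.99), were the 2 of 11 counted inflammatory genes that rose. The cytokine gene Tnf was at 52.7 CPM after sham and 36.7 CPM after MI, the interleukin-1 receptor antagonist gene Il1rn at 15.8 and 25.9 CPM, and the co-receptor gene Cd14 at 189 and 233 CPM, and the list's median was 0.13. Il1b and Il6 did not reach 20 CPM in either library. Saa3 stood at 626 CPM in non-myeloid cells of the MI library, close to its level in the C1q-positive cells, and at 47.2 CPM in those of the sham library.

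By the rule above, monocyte genes were the list with the largest share of members higher after MI. Of the 11 counted, 8 rose and the median log2 ratio was 1.24. This order of the lists did not hold in every setting. At a C1q limit of 0.6% the monocyte count was 2 of 6, against 3 of 5 for MHC class II and 4 of 7 for neutrophil genes. In cells thinned to 2000 UMIs it was 4 of 8, against 3 of 5 for MHC class II. Plac8, expressed in classical monocytes and in B cells, rose from 29.4 to 135 CPM (log2 2.20, 2.07 to 2.33), beside B cell genes at a sum of 157 and 212 CPM. Ly6c2, which encodes the surface antigen of classical monocytes, rose from 16.3 to 46.9 CPM (log2 1.52, 1.34 to 1.71), and Ccr2, the receptor by which monocytes leave the marrow, rose from 40.0 to 81.1 CPM (log2 1.02, 0.89 to 1.14). The haptoglobin gene Hp rose from 22.3 to 62.2 CPM, the lectin gene Chil3 from 12.1 to 28.6 CPM and the calcium-binding protein gene S100a6 from 477 to 1006 CPM. After MI non-myeloid cells held more of some of these transcripts than C1q-positive cells did, with Hp in non-myeloid cells after sham and MI at 8.99 and 245 CPM, S100a6 at 1619 and 2496 CPM and Plac8 at 203 and 286 CPM, and the part of free RNA in the levels of these 3 genes was not tested. The remaining ones that rose were Clec4e and Vcan, given above. The monocyte genes of the whole list were more abundant in the kept cells under the C1q limit, where their levels summed to 5609 CPM after sham and 8965 CPM after MI, than in the C1q-positive cells, where they summed to 1055 and 2074 CPM. When the cells with a Ly6c2 or Ccr2 UMI were left out (1892 sham and 2072 MI cells stayed), 2 of 5 counted monocyte genes were at least 2-fold higher, and 63 genes in all, of which 51 are among the 78. Ly6c2 and Ccr2 are at 0 in that setting by the choice of cells, so the lower count of the list follows in part from it. The count of the list was 2 of 6 (median 0.73) at a C1q limit of 0.6%, 0 of 4 (median 0.13) at 1%, and 3 of 7 without the cells with 0.2% or more of their UMIs in 7 lists of other cell types, and fewer genes of the list reached 20 CPM in each of these settings. Ccr2 was past 2-fold in 10 of the 18 settings that gave it a ratio, and S100a6 in 12 of 19. At the limit of 1% Ccr2 was at log2 0.12 and S100a6 at 0.37, and Chil3 turned below 0 in 3 of 19 settings, in which it was under 20 CPM.

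Of the 5 counted genes of MHC class II, whose products present peptides to CD4 T cells, 3 rose and the median was 1.51. H2-Aa rose from 25.0 to 75.1 CPM (log2 1.59, 1.44 to 1.74), H2-Eb1 from 18.3 to 53.1 CPM and H2-Ab1 from 19.2 to 54.6 CPM, while the invariant chain gene Cd74 was at 139 and 221 CPM (log2 0.67) and H2-DMa, which edits the peptides loaded, at 44.6 and 54.0 CPM. Non-myeloid cells held more of these 3 risen transcripts, and less after MI than after sham. There H2-Aa was at 206 CPM after sham and 159 CPM after MI, H2-Eb1 at 199 and 130 CPM and H2-Ab1 at 180 and 115 CPM. B cell genes summed to 157 and 212 CPM in the C1q-positive cells. The part of free RNA and of B cells in the MHC class II levels was not tested. The levels of this list were concentrated in few cells. Cells with at least 0.5% of their UMIs from H2-Aa, H2-Ab1, H2-Eb1 and Cd74 numbered 17 of 2115 after sham (0.804%) and 48 of 2513 after MI (1.91%). With the strata of the cells (dividing or not, high or low in Lyve1, Folr2, Cd163 and Timd4, and high or low in the same MHC class II genes) weighted to the sham shares, H2-Aa was at log2 0.52, and 0 of the 5 genes were past 2-fold, and this was also so at a C1q limit of 1% (median 0.85). The weighted values follow in part from the choice of strata, since these genes set the MHC class II stratum.

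Of 9 counted neutrophil genes, 4 rose, with a median log2 ratio of 0.92. S100a8, one chain of the alarmin calprotectin, rose from 2134 to 4603 CPM (log2 1.11, 1.09 to 1.13), and its partner S100a9 was at 2365 and 4137 CPM (log2 0.81). The collagenase gene Mmp8 rose from 16.3 to 57.9 CPM, the secreted protein gene Retnlg from 54.0 to 162 CPM and the G-CSF receptor gene Csf3r from 14.4 to 29.6 CPM. Of 19 settings, Csf3r was past 2-fold in 11 and S100a8 in 16, and Retnlg in 14 of the 17 in which it reached 20 CPM, with S100a8 at log2 0.59 in cells with a Y-linked and no Xist UMI. In cells under the C1q limit S100a8 and Retnlg ran at far higher levels that did not rise, S100a8 from 25927 to 24762 CPM and Retnlg from 1795 to 1057 CPM. In P10-MI_vehicle 20 of 2513 cells held 50% of the S100a8 UMIs, and in P10-sham_vehicle 9 of 2115 cells did. Without the cells that had 0.2% or more of their UMIs in the lists of 7 other cell types, neutrophils among them, 1911 sham and 2113 MI cells stayed, and 55 genes were at least 2-fold higher, 51 of them among the 78. The count of the neutrophil list was then 1 of 3, as it was at a C1q limit of 1%. The first of these counts follows in part from the choice, since neutrophil genes were among those that chose the cells left out. It was 1 of 9 in the cells with a Y-linked and no Xist UMI (median 0.53, 2 genes below 0), 2 of 9 at a mitochondrial limit of 5% and in cells thinned to 2000 UMIs, and 8 of 9 without the cells whose barcodes are in both libraries (median 1.16). The part of neutrophil RNA or doublets in these values was not tested further.

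Chemokine genes went in both directions. Ccl8, which draws monocytes and lymphocytes, rose from 42.8 to 94.0 CPM (log2 1.13, 1.01 to 1.25), and Ccl5 rose from 9.55 to 23.8 CPM (log2 1.32, 1.07 to 1.57). These were the 2 of 14 counted that rose, but Ccl5 reached 20 CPM in 11 other settings only, in 10 of which it was past 2-fold, and was at log2 -0.57 with a mitochondrial limit of 5%. Ccl8 was past 2-fold in 17 of 19 settings and lowest, at log2 0.97, in cells thinned to 2000 UMIs. The CCR2 ligand genes lay on the other side of 0, with Ccl12 at 864 CPM after sham and 448 CPM after MI (log2 -0.95, -0.99 to -0.91), Ccl7 at 462 and 271 CPM (log2 -0.77, -0.82 to -0.72) and Ccl2 at 903 and 622 CPM (log2 -0.54, -0.57 to -0.50). None of these 3 reached 2-fold, although Ccl12 did without dividing cells (-1.02) and in cells with Xist and no Y-linked UMI (-1.08), and Ccl7 did in the latter (-1.06), where 3 chemokine genes were past 2-fold lower. Ccl6 was at 288 and 477 CPM, and the platelet factor 4 gene Pf4, the most abundant of the list, at 5026 and 3878 CPM. In the cells under the C1q limit Ccl7 and Ccl2 had the opposite sign, at 50.4 and 99.9 CPM for Ccl7 and 169 and 432 CPM for Ccl2, and Ccl12 was at 56.6 and 55.7 CPM.

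As a list, the genes of resident cardiac macrophages had a median close to that of all genes, while single members lay to either side. Of 18 counted, 0 were past 2-fold and their median log2 ratio was -0.03. Pf4 (log2 -0.37) and the mannose receptor gene Mrc1, at 2229 CPM after sham and 1744 CPM after MI (log2 -0.35, -0.37 to -0.33), had the lowest ratios, followed by the fractalkine receptor gene Cx3cr1 at 569 and 472 CPM (log2 -0.27). The hyaluronan receptor gene Lyve1 (237 and 223 CPM), the folate receptor gene Folr2 (269 and 275 CPM) and Cd163, the haemoglobin scavenger receptor gene (179 and 177 CPM), differed by less than 0.1 log2 units. Selenop, a selenium carrier, lay highest in the list at 1818 and 2360 CPM (log2 0.38).

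**Figure D3:**
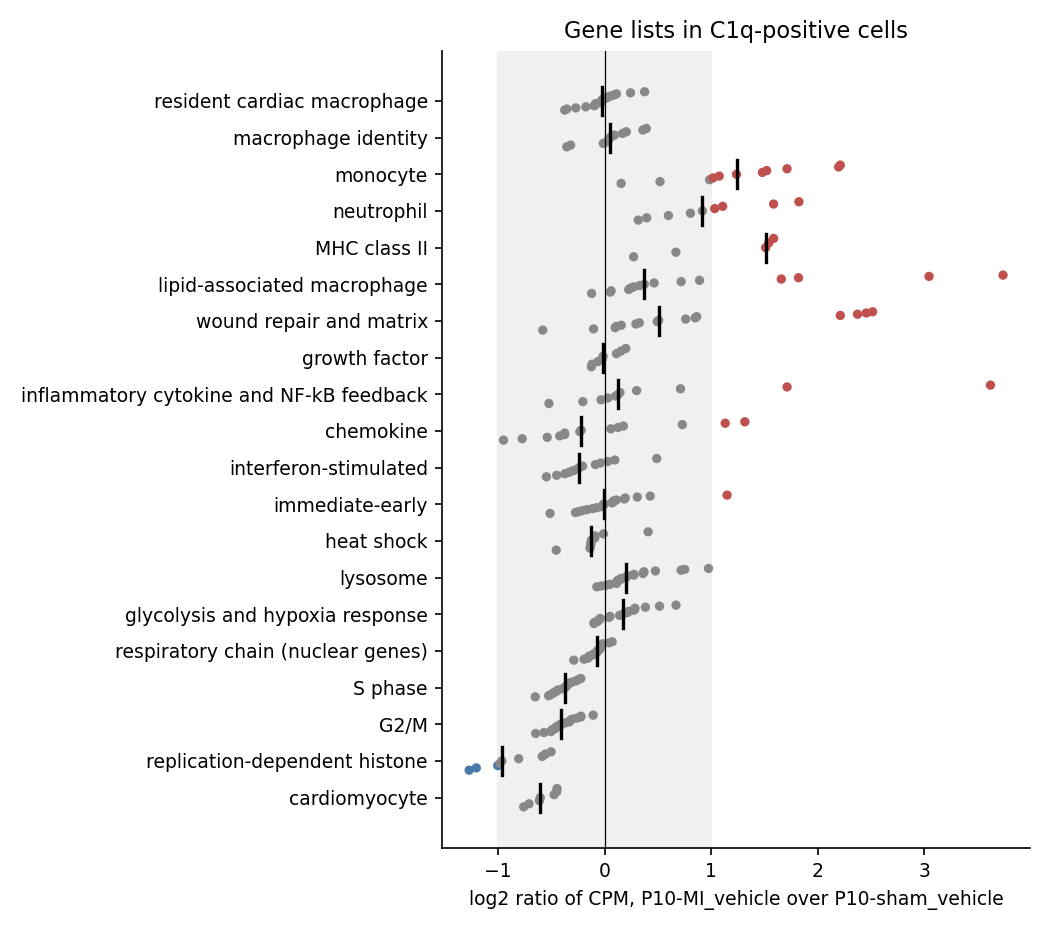
Log2 ratio of MI over sham in C1q-positive cells (x axis) of counted genes of each list (y axis, 1 row per list, 1 point per gene), with the median of each list as a bar, the range within 2-fold shaded, and genes past it in red (higher) or blue (lower). Monocyte and MHC class II genes have the highest medians shown (1.24 and 1.51), histone and cell cycle genes lie to the left of 0, and resident macrophage and respiratory chain genes gather around 0.

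In 10 further lists no counted member was past 2-fold. These were the 8 counted growth factor genes, the 10 heat shock genes, the 13 interferon-stimulated genes (median -0.24), the 8 complement genes other than C1q (median 0.22), the 19 genes of glycolysis and the hypoxia response (median 0.17), the 20 nuclear genes of the respiratory chain (median -0.07), the 14 iron and heme genes (median 0.18), the 10 NRF2 genes, the 23 lysosome genes (median 0.20) and the 16 transcription factor genes (median 0.03). Igf1, which resident macrophages supply to the heart, was at 398 and 430 CPM, Hif1a, the oxygen-sensing factor gene, at 47.1 and 67.3 CPM, and Hmox1, the heme-degrading enzyme gene, at 271 and 339 CPM. Isg15, an interferon-induced ubiquitin-like gene, was at 34.6 CPM after sham and 23.7 CPM after MI. The lysosome list leaned to one side, with 21 of 23 genes above 0, and its proteases Ctsd (832 and 1401 CPM, log2 0.75, 0.72 to 0.78) and Ctsl (291 and 479 CPM, log2 0.72, 0.67 to 0.77) were the largest of the abundant ones. Acp5 of the lysosome list (11.6 and 22.8 CPM, log2 0.98) was past 2-fold in 6 of 19 settings, and Gsr of the NRF2 list (log2 0.93) in 1. At a C1q limit of 1%, 1 of 14 counted interferon-stimulated genes was past 2-fold higher. Apoe, the lipid carrier and the most abundant gene of the cholesterol list, was at 7379 and 9685 CPM (log2 0.39, 0.38 to 0.40). The scavenger receptor gene Marco rose from 8.65 to 30.6 CPM (log2 1.82, 1.57 to 2.08), although it was at log2 -0.41 and under 20 CPM at a C1q limit of 1%, and it and Tgm2 were the 2 of 17 efferocytosis and scavenger genes that rose. Of 20 counted immediate-early genes, which respond within minutes to stimulation and to dissociation, Nr4a1 alone rose (17.9 to 39.7 CPM), past 2-fold in 12 of the 17 settings in which it reached 20 CPM and at log2 0.13 at a C1q limit of 1%, and Fos was at 794 and 903 CPM with a list median of -0.01.

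Of the 8 genes that fell, 5 were histone and 2 haemoglobin genes. Of the 9 counted replication-dependent histone genes, which are transcribed while DNA is copied, 3 fell and all had negative ratios, with a median of -0.96. Hist1h2ab fell from 170 to 73.7 CPM (log2 -1.20, -1.30 to -1.11), Hist1h3b from 55.9 to 23.2 CPM (log2 -1.27, -1.43 to -1.11) and Hist1h2ae from 319 to 159 CPM (interval of the log2 ratio -1.07 to -0.94), while Hist1h2ap, the most abundant, was just inside the limit at 672 and 340 CPM (log2 -0.98, -1.02 to -0.94). The members of this family are near-identical copies, so reads may have been shared out among them. With the strata of the cells weighted to the sham shares 0 of the 9 histone genes were past 2-fold (median -0.52), without the dividing cells (0.5% or more of UMIs in S phase and G2/M genes) 1 of 6 counted was (median -0.47), and Hist1h2ae was past 2-fold in 6 of 19 settings. None of the 17 counted S phase genes and 20 counted G2/M genes was past 2-fold, but all of them were below 0, with medians of -0.37 and -0.41. Weighted to the sham shares of the strata, the medians were -0.24 with 1 of 17 S phase genes above 0 and -0.02 with 7 of 20 G2/M genes above 0, and Mki67 was at 0.06. The S phase and G2/M genes themselves set the dividing stratum, so this shift towards 0 follows in part from the choice of strata. No result is read from it. Pcna, the replication clamp gene, was at 163 CPM after sham and 113 CPM after MI, Mki67, a marker gene of cycling cells, at 243 and 197 CPM, and the mitotic kinase gene Cdk1 at 79.6 and 50.9 CPM.

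The haemoglobin genes Hbb-bs (58.9 to 7.40 CPM, log2 -2.99, -3.26 to -2.74) and Hba-a1 (21.5 to 3.25 CPM, log2 -2.73, -3.14 to -2.34) fell in the summed cells, but Hba-a1 had a positive log2 ratio at C1q limits of 0.6% (0.76) and 1% (0.67), in Xist cells (0.15) and in Y-linked cells (1.09), and Hbb-bs was at 0.0539 in Y-linked cells. Hbb-bs was also lower after MI in the cells under the C1q limit (277 and 60.6 CPM) and in non-myeloid cells (547 and 216 CPM), which do not make haemoglobin. Cardiomyocyte genes had negative ratios throughout the 7 counted, with a median of -0.60 and Myl2 at 115 and 75.5 CPM, and the whole list was also lower after MI in non-myeloid cells (455 and 238 CPM). The last gene that fell outside the lists was Ube2e2, a ubiquitin-conjugating enzyme gene, named after its values were seen, with a log2 ratio of -1.09, and the histone genes Hist1h2an and Hist1h2af completed the 8. The 12 lowest ratios at the minimum of 100 CPM included Plekho1, a signalling adaptor gene, at 192 and 102 CPM (log2 -0.92), and Xist, the RNA that silences the second X chromosome in females, at 370 and 220 CPM (log2 -0.75, -0.80 to -0.69). The Y-linked genes Ddx3y (38.5 and 43.4 CPM), Uty (36.3 and 41.3 CPM) and Eif2s3y (34.8 and 34.9 CPM) lay near the median of all genes.

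Part of the 78 genes that rose had symbols of gene copies or of predicted genes. By a grouping made after the values were seen, 22 of them had symbols of predicted genes, pseudogenes or retrogenes, among them Ftl1-ps1 (58.8 to 134 CPM), a copy of the ferritin light chain gene, and Rps27rt (52.9 to 120 CPM), a copy of a ribosomal protein gene. Of the 22, 16 were annotated as processed pseudogenes, while Gm48099 was annotated as a long non-coding RNA and is not shown to be a copy. Where a gene is a copy, its reads cannot be told apart with certainty from those of the parent gene. All 22 were also at least 2-fold higher after MI in the cells under the C1q limit, with a median log2 ratio of 1.66 there, 1.62 in non-myeloid cells and 1.44 in the C1q-positive cells. Of all 6659 counted genes, 3.21% were 2-fold higher in the cells under the limit. The other 56 had a median of 1.56 in C1q-positive cells, 0.39 in the cells under the limit and 0.49 in non-myeloid cells, and 17 of them were at least 2-fold higher in the cells under the limit. The parent gene Ftl1 was at 5658 CPM after sham and 6475 CPM after MI.

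Of the 78, 27 stood at least as high in non-myeloid cells of the MI library as in its C1q-positive cells (42.5% of all counted genes did), and 28 stood at less than 20% of that level (7.07% of all). The kept cells under the C1q limit numbered 237 in P10-sham_vehicle and 941 in P10-MI_vehicle. In those of MI, 58 of the 78 were more abundant than in the C1q-positive ones, as were 31.6% of all counted genes. Spp1 was at 4115 CPM in these cells after MI (20.4 after sham) and Saa3 at 2441 CPM (47.5 after sham). Levels of Spp1 and Saa3 after MI thus were higher outside the C1q-positive set than in it, and C1q-positive cells with a lower C1q share are described separately below.

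Summed levels do not say how many cells carry a gene, so each C1q-positive cell was thinned to 2000 UMIs, which left out 82 shallower sham cells and 230 shallower MI cells, and the cells with at least 1 UMI were counted. The non-myeloid cells, given as a background, had medians of 6142 UMIs after sham and 4712 UMIs after MI before thinning. Spp1 was found in 8.26% of 2033 sham cells and 25.7% of 2283 MI cells, 17.4 points more (15.2 to 19.6), and in 0 of 128 (0%, upper bound 2.84) and 8.27% of 254 non-myeloid cells. Before thinning the shares were 18.0% and 38.9%. The share of C1q-positive cells with Spp1 was thus larger after MI, and larger than that of non-myeloid cells of the same library. Gpnmb gave 0.984% and 5.78%, with 0% and 0.787% of non-myeloid cells.

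Shares of Saa3 did not exceed the background. Those of S100a8 were somewhat higher than in non-myeloid cells, a difference not tested against counting error, and not higher than in B cells. Saa3 was found in 0.541% of sham and 6.09% of MI cells, and in 1.56% and 7.48% of non-myeloid cells. S100a8 was found in 10.9% of sham and 20.3% of MI cells, and in 8.59% and 15.7% of non-myeloid cells. In the 44 B cells of the MI library that reached 2000 UMIs, which make neither gene, Saa3 was found in 9.09% (2.53 to 21.7) and S100a8 in 20.5% (9.80 to 35.3). No expression is read from the Saa3 share of C1q-positive cells, which after MI was not above that of either kind of background cell. The Saa3 and S100a8 shares both lie within the wide intervals of the B cells, so neither can be placed above or below them. Most non-myeloid cells were fibroblasts by their genes, and stromal cells can make Saa3, so their share is no measure of free RNA for it. The levels of both genes, 726 and 4603 CPM, stood above the 32.5 and 102 CPM of the B cells. Fn1 was found in 7.03% and 19.8% of C1q-positive cells and in 51.6% and 60.2% of non-myeloid cells, most of them fibroblasts, which make fibronectin. In the B cells of the MI library Fn1 was found in 0 of 44 (0%, upper bound 8.04) and stood at 9.29 CPM. Spp1 was found in 11.4% (3.79 to 24.6) of these B cells, at 55.7 CPM, against 25.7% and 1430 CPM in the C1q-positive cells. B cells of the sham library numbered 18 at this depth, with a median of 6650 UMIs for all 19, and those of MI had a median of 3509 UMIs.

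**Figure D4:**
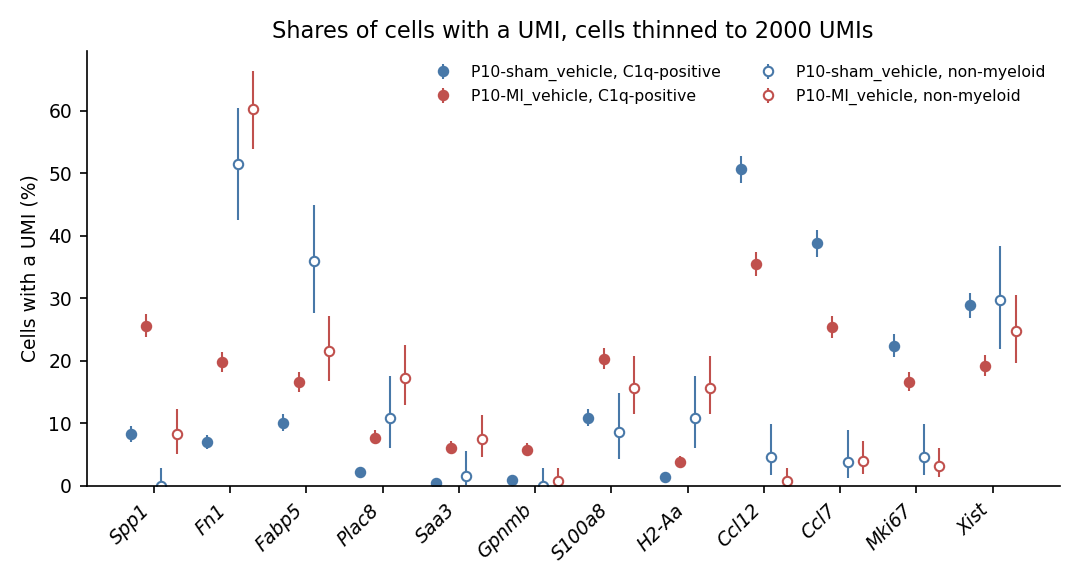
Share of cells with at least 1 UMI (y axis, percent) at 2000 UMIs per cell for each gene on the x axis, in C1q-positive cells (filled) and non-myeloid cells (open) of P10-sham_vehicle and P10-MI_vehicle, with exact binomial 95% intervals as bars. Spp1 (8.26% and 25.7%) is more frequent in C1q-positive MI cells than in non-myeloid ones, whereas the Saa3 share (6.09%) lies below that of non-myeloid cells (7.48%).

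Few cells held much of the Spp1, Saa3 and Fn1 transcripts. In P10-MI_vehicle 41 of 2513 cells held 50% of the Spp1 UMIs, 8 cells 50% of those of Saa3 and 58 cells 50% of those of Fn1. In P10-sham_vehicle the same portion came from 28, 2 and 39 cells. For the more evenly spread Ccl12 it came from 188 sham and 163 MI cells. One MI cell held 2001 UMIs of Saa3, and 1 held 1322 of Spp1. The ratio of Saa3 therefore rests on few cells in each library.

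The genes of the CCR2 ligands were found in a smaller share of cells after MI, although none of them was past 2-fold in its summed level. Ccl12 was found in 50.7% of sham and 35.5% of MI cells at 2000 UMIs, 15.2 points fewer (interval of the difference -18.1 to -12.2), and Ccl7 in 38.8% and 25.4%, 13.4 points fewer (-16.2 to -10.6). Ccl2 was found in 56.9% (54.7 to 59.0) and 45.8% (43.8 to 47.9). The log2 ratios of Ccl12 and Ccl7 were below 0 in each range of C1q share. Mrc1 remained in most cells, with 94.0% after sham and 87.5% after MI. Mki67 was found in 22.4% and 16.7% of cells. In non-myeloid cells at the same depth the shares after sham and MI were 4.69% and 0.787% for Ccl12, 3.91% and 3.94% for Ccl7, 7.03% and 7.09% for Ccl2, 5.47% and 4.33% for Mrc1 and 4.69% and 3.15% for Mki67, below those of C1q-positive cells throughout.

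Within the MI library, cells with a Spp1 UMI differed from the rest of the C1q-positive cells at equal depth. Of the 586 cells with a Spp1 UMI, 42.5% (38.5 to 46.6) also had Fn1, against 12.0% (10.5 to 13.6) of the 1697 cells without Spp1. Mrc1 was found in 78.2% (74.6 to 81.4) of the Spp1 cells and 90.7% (89.3 to 92.1) of the others, and Cx3cr1 in 46.1% (42.0 to 50.2) and 56.2% (53.8 to 58.6). In the sham library, Fn1 was found in 19.0% (13.4 to 25.8) of the 168 cells with Spp1 and 5.95% (4.92 to 7.12) of the 1865 others, Mrc1 in 88.7% (82.9 to 93.1) and 94.5% (93.4 to 95.5), and Cx3cr1 in 58.9% of both. The share with Cx3cr1 was thus lower in the Spp1 cells after MI but not after sham, and the difference between the libraries was not tested. The Spp1 cells were deeper before thinning, with a median of 8673 UMIs against 6653, and the part of depth in these values beyond the thinning was not tested.

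Dividing cells, here those with at least 0.5% of their UMIs in S phase and G2/M genes, made up 17.0% (15.4 to 18.6) of C1q-positive cells after sham and 11.3% (10.1 to 12.6) after MI, 5.63 points fewer (-7.70 to -3.59). At 2000 UMIs per cell the shares were 18.3% and 12.4%, and the difference was -5.95 points (-8.14 to -3.76). Mki67, one of the genes that chose the dividing cells, differed by a log2 ratio of 0.10 within them. This value follows in part from that choice. Hist1h2ab was at -0.73 in the dividing cells and Hist1h2ap at -0.60. Outside the dividing cells Hist1h2ab was at -1.02. The level of Hist1h2ab was thus lower after MI in dividing and in other cells.

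The rise of Spp1 was seen in each of the ranges of cells described here. Among cells with 0.3 to 0.6%, 0.6 to 1% and at least 1% C1q, the log2 ratio of Spp1 was 4.31, 3.51 and 3.47. In cells with at least 0.05% of UMIs from Lyve1, Folr2, Cd163 and Timd4, genes of resident macrophages, here called Lyve1/Folr2-positive, Spp1 was at 3.67, against 3.66 in the other cells. These strata are ranges of a score, not cell types, and no difference between them was tested. Saa3 had 3.29, 7.14 and 1.67 over the C1q ranges. Fn1 was at 2.82, 2.90 and 1.50, and S100a8 at 0.30, 1.29 and 1.51.

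Some genes lay apart between the Lyve1/Folr2 ranges. Ctsd had a log2 ratio of 0.35 in the Lyve1/Folr2-positive cells and 1.04 in the negative ones, Ctsl 0.35 and 1.01, and Gpnmb 1.98 and 3.19. Mrc1 had -0.87, -0.38 and -0.12 over the C1q ranges from low to high, and Ccl12 had -1.41, -0.88 and -0.82. The ranges themselves differed in size. The Lyve1/Folr2-positive cells were 44.4% of the set after sham and 40.6% after MI (difference -3.82 points, -6.70 to -0.93), and cells with 0.3 to 0.6% C1q were 11.7% and 16.9% (difference 5.23 points, lower bound 3.19).

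**Figure D5:**
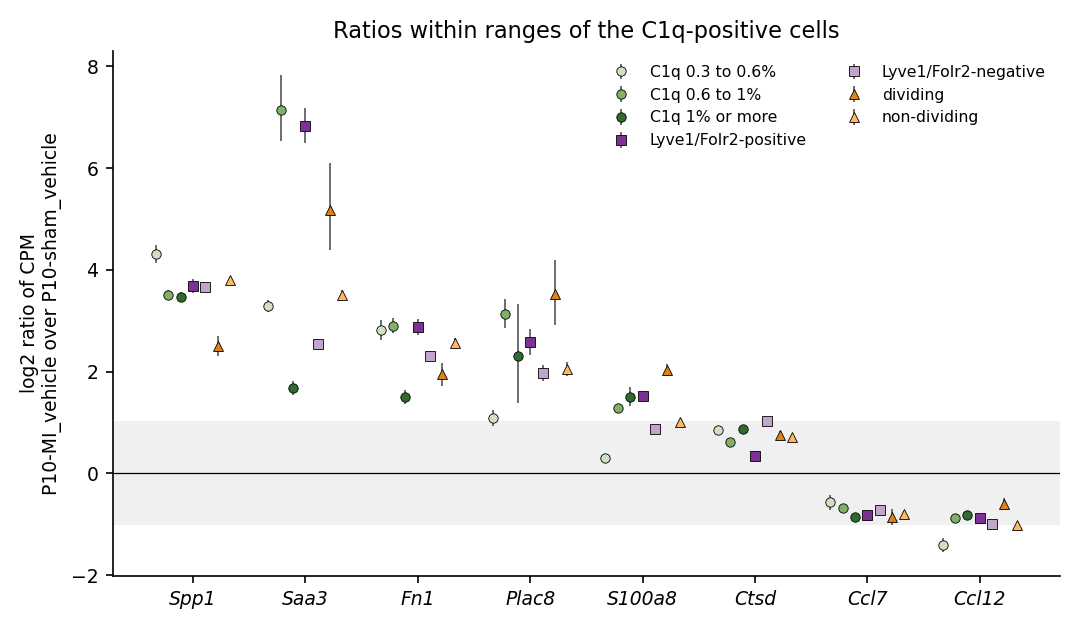
Log2 ratio of MI over sham (y axis) of selected genes (x axis) within ranges of C1q-positive cells (circles for C1q share, squares for Lyve1/Folr2-positive and -negative cells, triangles for dividing and non-dividing cells), with exact 95% counting intervals as bars and the range within 2-fold shaded. Spp1 is lowest in dividing cells and highest, at 4.31, in cells with 0.3 to 0.6% C1q, and Ccl7 and Ccl12 lie below 0 in each range shown.

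The pooled animals were of both sexes, and the mixture of cells with sex-linked RNA differed between the libraries. Cells with Xist and no Y-linked UMI made up 30.7% of C1q-positive cells after sham and 21.4% after MI, and cells with Y-linked UMIs and no Xist 44.4% and 45.3%. Cells with neither made up 19.0% and 28.5%, and these were shallow, with medians of 5457 and 4006 UMIs. Spp1 had a log2 ratio of 4.11 in the Xist cells and 3.57 in the Y-linked cells, and Fn1 of 1.79 and 2.83. The rises of Spp1 and Fn1 were thus found in both kinds of cell. In the Xist cells 73 genes were at least 2-fold higher and 22 lower, and in the Y-linked cells 74 and 1.

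The promoters of the genes at both ends were read for short motifs because several of these genes were found in the same cells. RefSeq promoters on GRCm38.p6, from 250 bases before to 50 after a start site, could be matched by symbol to 5294 of the 6659 counted genes, to 6 of the 12 highest and to 5 of the 12 lowest. Spp1 and Ccl12 are shown as the most abundant of the 12 highest and of the 12 lowest genes, in the 250 bases before the start, with TATAAA and GGAANNNCC matches in capitals. The Spp1 window lies at chr5:104434861-104435110 and the Ccl12 window at chr11:82101595-82101844, both on the plus strand, and for Spp1 the first of its starts in the table was taken.
Spp1: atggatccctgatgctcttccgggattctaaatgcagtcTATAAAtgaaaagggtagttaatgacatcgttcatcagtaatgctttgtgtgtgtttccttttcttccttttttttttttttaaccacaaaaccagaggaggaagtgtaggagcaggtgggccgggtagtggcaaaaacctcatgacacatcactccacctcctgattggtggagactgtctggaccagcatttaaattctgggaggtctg
Ccl12: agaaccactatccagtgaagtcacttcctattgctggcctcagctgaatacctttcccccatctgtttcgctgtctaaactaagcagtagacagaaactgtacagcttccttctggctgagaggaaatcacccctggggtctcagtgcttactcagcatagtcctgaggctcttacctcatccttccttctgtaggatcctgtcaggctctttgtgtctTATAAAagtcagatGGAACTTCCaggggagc

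On both strands, TATAAA was found in 1 of the 6 promoters of genes with the highest ratios (Spp1) and in 2 of the 5 of genes with the lowest (Ccl12 and Xist), against 6.89% of all promoters matched. GGAANNNCC was found in 2 of 6 (Plac8 and Saa3) and 3 of 5 (Ccl12, Erh and Snrpd3), against 22.7%. ACGTG, the core of the hypoxia response element, was found in 1 of 6 (Plac8) and 0 of 5, against 26.7%, and TGACNNNGC, the core of the antioxidant response element, in 0 of 6 and 1 of 5 (Plekho1), against 15.0%. The AP-1 site TGACTCA (3.27% of all), the E-box CACGTG (10.9%), which contains ACGTG, and the palindromic STAT site TTCNNNGAA (6.48%) were in none of these 11 promoters. A match describes the letters in a window of 300 bases, and with 6 and 5 promoters no share can be set against that of all genes.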

How the data were processed

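Counts of UMIs per gene symbol and barcode were deposited by the authors for each library, unnormalized; the libraries were made on the BMKGENE DG1000 platform. The submitters' processing notes name Seurat 4.1.0 and the build mm10, and the aligner and annotation are not given in the sources used here. The third library of the series, from pups treated with SB225002, was not used.

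The members and gene lists were chosen with earlier results of these data known. Cells were filtered and chosen as the report states, UMIs were summed over the chosen cells of each library, and levels are UMIs per 1000000 of their UMIs (CPM). With 1 library per condition, edgeR and DESeq2 gave scaling factors only. Ratios carry exact conditional intervals, shares exact Clopper-Pearson intervals and differences of shares Newcombe intervals, all at 95%. PCR and sampling of cells are outside these intervals. Doublets were kept and no caller was run. A gene was called at 2-fold among genes with 20 CPM in either library. Genes named are the 12 highest and 12 lowest ratios at 100 CPM, up to 6 of each list by size of ratio with its most abundant gene, and the markers of other cell types. Markers of macrophages that show no difference, single low markers and members that lie near 0 were named outside this rule. Of the genes with the highest and lowest ratios, 1 on each side is not reported or plotted here, and counts and medians include both. Python 3.11.15, numpy 2.4.6, scipy 1.17.1, pandas 2.3.3, matplotlib 3.10.9, R 4.3.3, edgeR 4.0.16 and DESeq2 1.42.0 were used.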

Additional observations from a re-analysis of the deposited data

Results flagged for a closer look

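Col1a1, a collagen gene of fibroblasts, had opposite signs in cells with different sex-linked RNA, with a log2 ratio of MI over sham of -1.15 in C1q-positive cells with Xist and no Y-linked UMI and 1.09 in those with Y-linked and no Xist UMI. Dcn, the gene of the matrix proteoglycan decorin, did so too, with -1.11 and 2.09. Each side is 1 library per condition, so the difference between the kinds of cell was not tested.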

How the results depend on the processing

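Values in these paragraphs compare 1 pooled library with another, so none has a replicate error. No paired analysis was possible because each condition has 1 library and no replicate numbers pair the libraries. The alternatives that left out neutrophil genes from the other cell types, that left out shared barcodes and that took cells by Xist or Y-linked UMIs were chosen after seeing the data.

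The difference in the C1q-positive share was -14.5 points at a C1q limit of 0.1%, -6.74 at 1% and -20.1 at a mitochondrial limit of 5%. The 78 genes at least 2-fold higher became 47 at a C1q limit of 1%, 208 with a filter of 5 CPM, 16 with 100 CPM and 1954 with none. The 8 lower genes became 3 at C1q limits of 0.6% and 1%, 14 in thinned cells, 13 for the mean of each cell's own CPM, 5 without dividing cells, 3 with strata weighted to the sham shares, 22 in Xist cells, 1 in Y-linked cells, 14 with a filter of 5 CPM, 2 with 100 CPM and 922 with none. TMM and DESeq2 scaling moved all log2 ratios by 0.045 and 0.028.

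Of the 38 named genes past 2-fold, 8 reached 20 CPM and were past it in all 19 settings, 17 had such a ratio in each setting that gave one, whatever their level, and 33 never changed sign. Spp1 (3.47 to 4.11), Saa3 (1.67 to 4.56) and Fn1 (1.50 to 2.83) were among the 8, while Ly6c2 reached 20 CPM in 15 settings and Vcan in 8. The sign turned for Marco at a C1q limit of 1% (-0.41), for Chil3 without cells of other types (-0.16), without Ly6c2 or Ccr2 cells (-0.17) and in Xist cells (-0.22), for Hbb-bs in Y-linked cells (0.0539), for Hba-a1 at C1q limits of 0.6% (0.76) and 1% (0.67), in Xist cells (0.15) and in Y-linked cells (1.09), and for Ccl5 at a mitochondrial limit of 5% (-0.57). In each of these settings the gene was under 20 CPM. The cause was not tested.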
